A study of Mus musculus with 6 samples.

Results

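The transcription factors FOS, FOSB, FOSL1, FOSL2, JUN, JUNB, JUND, EGR1, ATF3 and MYC make up the core of the immediate-early response and of the AP-1 complex. They were taken from the deposited array by name: every probe whose target name, ignoring case, is 1 of these 10 symbols, with each probe kept apart. The array lists 8 of the 10 factors, with 12 probes, out of 30854 distinct gene names and 45281 probes. FOSL1 and JUND have no probe under these names. The array does carry a probe under the name JUND1, which RefSeq assigns to the gene Jund, and its values are given apart from the 12.

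C2C12 myoblasts, a mouse cell line, fuse into myotubes in low serum. The myoblasts received 60 nM of scramble siRNA or of an siRNA against *Dj1*, were moved to low-serum medium after 48 h, and were harvested as myotubes 96 h later. Total RNA of 3 samples per group was labelled with biotin and read on Illumina mouse bead arrays, which measure each probe on many beads. The arrays were made to see how a build-up of reactive oxygen species in muscle acts on transcription. The knockdown lowers the antioxidant protein DJ-1. The labels give 3 separate samples per group but do not say whether they are independent cultures, so the p-values measure the spread between these samples, which may be technical in part.

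Immediate-early genes are transcribed within minutes of a growth factor, stress or calcium signal, without new protein synthesis. FOS proteins cannot pair with themselves and bind DNA as dimers with JUN proteins, and the resulting AP-1 dimers read the TPA response element, while dimers that contain ATF or CREB proteins prefer the cAMP response element. In muscle, AP-1, EGR and MYC factors are known from proliferating myoblasts, from injury and from contraction, and high JUN or MYC activity can hold myoblasts back from differentiation. The samples here were taken days after the serum change, at a single time point.

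The values below are log2 signals after background correction and quantile normalization across the 6 arrays. A probe counts as detected on an array when the deposited detection p-value, which compares it with negative-control probes, is under 0.05. Probes detected on at least 3 of the 6 arrays were tested with limma, with Benjamini-Hochberg adjustment over all 17890 such probes. SE is the standard error of the fitted log2 fold change. All fold changes are *Dj1* knockdown against scramble siRNA, and sizes of rises and falls are on the log2 scale. The targeted gene Park7, which encodes DJ-1, stood at 13.59, 13.37 and 13.63 with scramble siRNA and at 12.48, 12.49 and 12.15 after knockdown, so the groups did not overlap. Its log2 fold change was -1.16 ± 0.14 (SE, adjusted p = 0.00344, limma), which left 44.7% of the scramble signal.

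Of the listed factors, FOSL2 fell after *Dj1* knockdown and none rose. The factors could be tested at 7 probes, 1 for each of FOS, FOSB, FOSL2, JUN, JUNB, EGR1 and ATF3. At an adjusted p under 0.05 (limma) 0 probes were higher and 1 was lower, where 16.5% of all tested probes were higher and 13.6% were lower (30.1% in all). A call at 1 of 7 probes is near this background and sets the factors apart from other genes in neither direction. At an unadjusted p under 0.05 there were 2, FOSL2 and JUN. At least 30.1% of all tested probes pass there, since each probe called after adjustment also passes before it. FOSL2 and JUN were also the 2 of 7 probes whose groups did not overlap, against 48.5% of all tested probes. The median log2 fold change of the 7 was -0.24, with a range from -0.49 to 0.05, and the median of all tested probes was 0.05. The other 5 probes were detected on fewer than 3 arrays and were not tested, and 3 of them were not detected on any array.

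**Figure D1:**
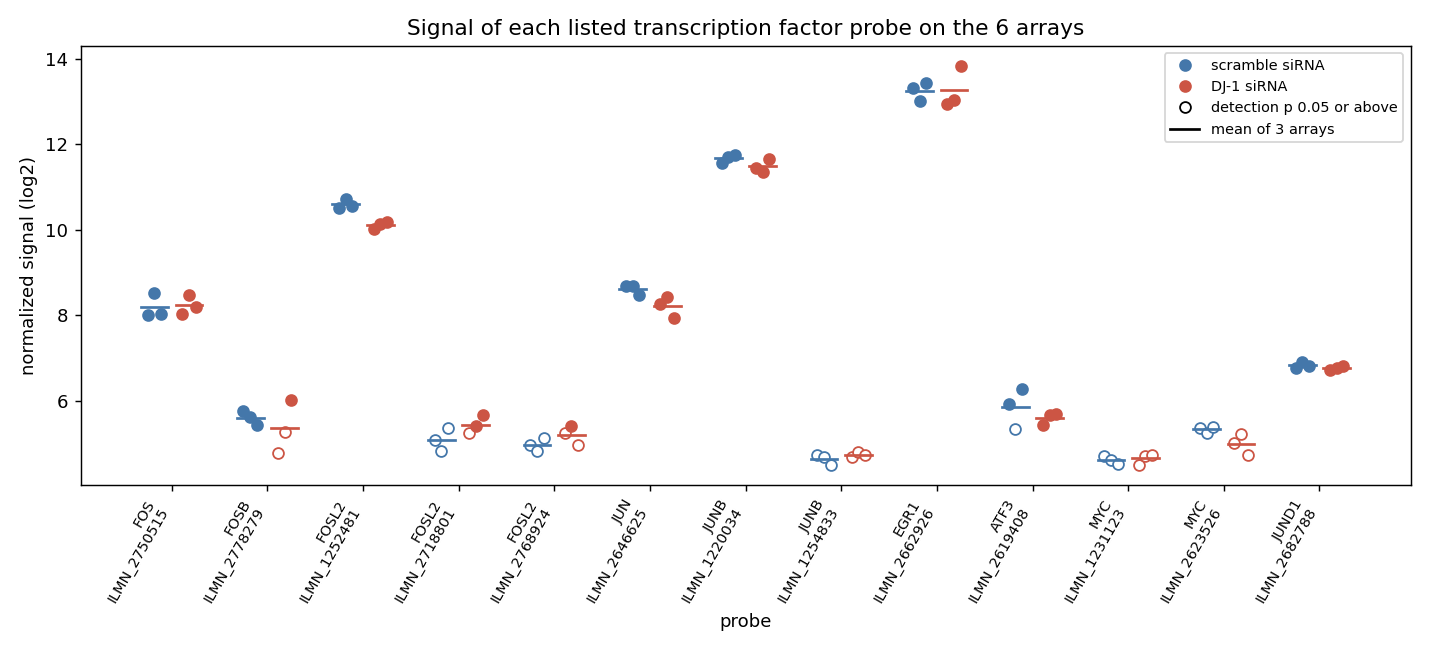
Normalized log2 signal of the 12 probes of the listed factors and of the JUND1 probe (horizontal axis) on each of the 6 arrays, with scramble siRNA in blue, DJ-1 siRNA in red, short bars for the mean of 3 arrays and open points for arrays where the probe was not detected. Among the tested probes of the listed factors the 2 groups stand apart at FOSL2 (ILMN_1252481) and JUN, while the DJ-1 siRNA arrays of EGR1 enclose its scramble arrays; levels compare arrays within a probe, not probes with each other.

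In the FOS family, 1 of 3 tested probes was called. FOS, the partner that gives AP-1 its fastest response, was detected on every array by its probe ILMN_2750515. Its log2 signal was 8.02, 8.52 and 8.03 with scramble siRNA and 8.04, 8.49 and 8.20 after knockdown. The groups overlapped fully. The means were 8.19 ± 0.29 and 8.24 ± 0.23 (SD, n = 3), and the log2 fold change of 0.05 had a 95% confidence interval from -0.38 to 0.49 (adjusted p = 0.848, limma). Its sign was not stable, since it was -0.07 without DJ-1 siRNA replicate 2.

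FOSL2, also called FRA2, is the FOS-related protein that lasts longer than FOS after a stimulus and lacks the strong activation domain of FOS. Its probe ILMN_1252481 was detected on all arrays. The deposited intensity was 1631, 1852 and 1591 with scramble siRNA and 1164, 1384 and 1128 after knockdown. After normalization the log2 signal was 10.50, 10.72 and 10.57 against 10.01, 10.12 and 10.18. Every knockdown array lay below every scramble array, before and after normalization. The means were 10.60 ± 0.11 and 10.10 ± 0.09 (SD, n = 3). The log2 fold change was -0.49 ± 0.11 (SE, 95% confidence interval from -0.75 to -0.24, adjusted p = 0.0167, limma), which left 71.0% of the scramble signal. With DJ-1 siRNA replicate 1 left out the call was lost, at a log2 fold change of -0.45 and an adjusted p of 0.0706. In RNA from whole cultures, here and for every gene below, fewer cells of a type and less RNA per cell cannot be told apart.

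The other 2 probes of FOSL2 stayed near background. ILMN_2718801 was detected on 0 scramble arrays and on 2 knockdown arrays, and ILMN_2768924 on 0 and on 1. Their log2 signals ranged from 4.84 to 5.69 over the 6 arrays. No fold change is given for them, so the fall of FOSL2 rests on a single probe. FOSB, which peaks later than FOS in many cells, was close to the detection limit as well. Its probe ILMN_2778279 was detected on 3 scramble arrays, at 5.76, 5.62 and 5.45, and on 1 knockdown array. The knockdown values of 4.79, 5.28 and 6.03 reached from below to above the scramble group. The probe entered the test only through the scramble arrays, where its mean was higher, so no p-value or interval is given. It was not called. The log2 fold change of -0.24 became 0.05 without DJ-1 siRNA replicate 1 and -0.58 when knockdown replicate 3 was left out.

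JUN is the AP-1 subunit that can also bind DNA as a homodimer and is activated by JNK. Its probe ILMN_2646625 read 8.68, 8.69 and 8.48 with scramble siRNA and 8.28, 8.43 and 7.94 after knockdown. The groups did not overlap, but the gap between them was narrow, and knockdown replicate 3 was the lowest. The means were 8.62 ± 0.12 and 8.22 ± 0.25 (SD, n = 3). The log2 fold change of -0.40 ± 0.15 (SE, 95% confidence interval from -0.76 to -0.04) did not pass the threshold after adjustment (adjusted p = 0.0865, limma). JUN was called lower when the background was not corrected, with a smaller log2 fold change of -0.29 and an adjusted p of 0.0429. Without DJ-1 siRNA replicate 3 the log2 fold change was -0.26.

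JUNB, a JUN relative that often damps growth signals, gave a steady signal at ILMN_1220034, at 11.56, 11.71 and 11.75 with scramble siRNA and 11.45, 11.35 and 11.66 after knockdown. The highest knockdown array lay within the scramble range. Its log2 fold change was -0.19 (95% confidence interval from -0.47 to 0.10, adjusted p = 0.274, limma), and -0.06 when scaling to a shared 75th percentile replaced quantile normalization. The second JUNB probe, ILMN_1254833, was not detected on any array. The probe under the name JUND1, for the JUN family member that resting cells express steadily, read 6.77, 6.92 and 6.82 against 6.74, 6.77 and 6.81. These ranges overlapped, and the log2 fold change was -0.07 ± 0.09 (SE, adjusted p = 0.614, limma).

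EGR1 is a zinc finger factor that serum response factor switches on together with FOS. Its probe ILMN_2662926 had a deposited intensity of 9956, 8451 and 10634 with scramble siRNA and 8031, 9554 and 13606 after knockdown. On the log2 scale this was 13.31, 13.01 and 13.43 against 12.94, 13.04 and 13.83. Knockdown replicate 3 was the highest of the 6 arrays and knockdown replicate 1 the lowest, so the knockdown group enclosed the scramble group. The means were 13.25 ± 0.22 and 13.27 ± 0.49 (SD, n = 3), and the log2 fold change of 0.02 had a 95% confidence interval from -0.58 to 0.62 (adjusted p = 0.96, limma). Leaving out DJ-1 siRNA replicate 3 gave -0.26, and leaving out replicate 1 gave 0.19. With this spread, a change of EGR1 inside that interval was not detectable.

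ATF3, a stress-induced repressor that pairs with JUN proteins, was near the limit of detection. Probe ILMN_2619408 was detected on 2 scramble arrays and on 3 knockdown arrays, at 5.93, 5.35 and 6.28 against 5.45, 5.68 and 5.71. The scramble arrays enclosed the knockdown arrays. The log2 fold change of -0.24 (95% confidence interval from -0.80 to 0.32, adjusted p = 0.471, limma) was -0.03 without scramble siRNA replicate 3 and -0.50 when scramble replicate 2 was left out. MYC, the growth-promoting factor that pairs with MAX, was not detected on any array by either of its probes. The deposited intensity of ILMN_1231123 lay between 120 and 152 and that of ILMN_2623526 between 140 and 177, and the lowest detection p-value among them was 0.0588. No statement on the direction of MYC mRNA can be drawn from these arrays.

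Promoter sequence was looked at because FOS and JUN genes are themselves targets of AP-1 and of serum response factor. RefSeq windows on GRCm38.p6, from 250 bases before to 50 bases after the gene start, were available for 7 of the 10 listed genes (Fos, Fosb, Fosl2, Jun, Junb, Jund and Atf3). On both strands the search took the TPA response element TGACTCA, the cAMP response element TGACGTCA, the variant TGACATCA, the E-box CACGTG that MYC and MAX read, and the CArG box of serum response factor. No motif contains another. Of all 32851 windows of 300 bases, 5.20% held TGACTCA, 1.79% TGACGTCA, 3.62% TGACATCA, 7.15% CACGTG and 1.63% a CArG box. Among the windows of the listed genes there was 1 match, TGACATCA in Jun, which starts 45 bases before the gene start. The windows of the 2 factors with a tested probe whose groups did not overlap are shown 5′ to 3′, with the match in capitals and everything else in lower case. The Fosl2 window (chr5:32136222-32136521, plus strand) holds none of the 5 motifs, and the Jun window is chr4:95052173-95052472 on the minus strand.
Fosl2: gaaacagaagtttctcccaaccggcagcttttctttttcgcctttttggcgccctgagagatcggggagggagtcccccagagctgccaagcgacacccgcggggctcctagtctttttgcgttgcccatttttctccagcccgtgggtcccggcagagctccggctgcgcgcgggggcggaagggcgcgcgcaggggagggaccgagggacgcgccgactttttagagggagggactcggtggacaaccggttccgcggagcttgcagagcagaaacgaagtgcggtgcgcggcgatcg
Jun: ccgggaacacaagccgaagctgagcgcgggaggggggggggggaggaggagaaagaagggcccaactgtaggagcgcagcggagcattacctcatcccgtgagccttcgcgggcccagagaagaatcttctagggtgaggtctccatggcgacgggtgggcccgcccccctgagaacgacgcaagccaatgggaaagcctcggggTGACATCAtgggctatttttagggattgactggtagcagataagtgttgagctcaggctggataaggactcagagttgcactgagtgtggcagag
A match is a run of letters, and a window without one says only that the letters are not there.

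Factors that pair with FOS and JUN or share their DNA sites come next. A list of 15 other bZIP genes (ATF, BATF, CREB and MAF factors) had 9 genes and 12 probes tested, and 3 were called higher (25%) and 0 lower (limma, adjusted p under 0.05), which is near the background of 16.5% and 13.6%. A lower probe was also called in 7 alternatives, among them the 75th percentile scaling and the analysis without background correction. At an unadjusted p under 0.05 there were 3 and 2, where at least 16.5% and 13.6% of all tested probes pass. The median log2 fold change was 0.18. Creb1 encodes the main factor of the cAMP response element. Its probe ILMN_3120454, 1 of the 3 called, was detected on 0 scramble arrays and on 3 knockdown arrays, where it read 6.90, 6.39 and 6.76. It entered the test only through the knockdown arrays, so its p-value is not given. With the detection limit of each scramble array in place of its signal, the bound on the rise was 2.24-fold on background-corrected values. Without background correction the log2 fold change was 0.50, a smaller rise, so the bound depends on the processing. The other tested Creb1 probe, ILMN_1215890, stood at a log2 fold change of 0.25 and was not called. It was detected on 1 scramble array and on 3 knockdown arrays. This probe too entered the test only through the knockdown arrays, so its p-value is not given. Maff is a small MAF protein without an activation domain. It read 7.18, 7.56 and 7.42 against 8.75, 8.36 and 8.71, a log2 fold change of 1.22 ± 0.15 (SE, adjusted p = 0.00374, limma). The groups were far apart relative to their spread, and without background correction the rise was 0.80. Creb5, a CREB-like partner of JUN, rose by 0.69 ± 0.14 (SE, adjusted p = 0.0129, limma), or by 0.33 without background correction, and its call was lost without DJ-1 siRNA replicate 1 (adjusted p = 0.0548) and, at 0.0523, when replicate 3 was left out.

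Other immediate-early genes were also called at a rate near the background. Of 28 listed genes, 27 have a probe (Nfil3 does not) and 20 were tested, with 28 probes. By limma 4 of them rose (14.3%) and 3 fell (10.7%), against 16.5% and 13.6% of all tested probes. Only 3 in all were called without DJ-1 siRNA replicate 1. The count was 12 with a trended prior variance (5 higher and 7 lower). It was 10 without background correction (4 higher and 6 lower). The median log2 fold change was 0.19. The largest fall was in Egr3, an EGR family member that sustains the response after EGR1 and that muscle spindles need. Probe ILMN_1227494 read 11.19, 11.28 and 11.19 with scramble siRNA and 8.74, 9.03 and 9.24 after knockdown. No knockdown array came near the scramble group. The log2 fold change was -2.22 ± 0.14 (SE, 95% confidence interval from -2.56 to -1.87, adjusted p = 0.00224, limma), which left 21.5% of the scramble signal. The second Egr3 probe was not detected on any array. Egr2, the EGR factor of myelinating glia, also fell, from 10.33, 10.31 and 10.44 to 9.82, 9.90 and 9.95. Its groups did not overlap, and its log2 fold change was -0.47 ± 0.10 (SE, adjusted p = 0.014, limma), with the call lost without DJ-1 siRNA replicate 1 (adjusted p = 0.0637).

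Per1, a clock gene that CREB can induce at once, had the largest rise of this list, and both of its probes rose. ILMN_2813487 went from 5.93, 6.24 and 6.32 to 8.23, 7.51 and 8.48, a log2 fold change of 1.91 ± 0.26 (SE, adjusted p = 0.00429, limma) that was 0.99 without background correction. ILMN_2813484 went from 8.14, 8.38 and 8.32 to 9.80, 9.55 and 10.32, a log2 fold change of 1.61 ± 0.20 (SE, adjusted p = 0.00381, limma). In both, knockdown replicate 2 was the lowest of its group and still above every scramble array. Gadd45b, a stress sensor upstream of p38 and JNK, had 1 probe called at 0.51 (adjusted p = 0.0364, limma; 0.28 without background correction) and 1 not called at 0.21, and the call was lost with any of 5 arrays left out (adjusted p up to 0.119 without DJ-1 siRNA replicate 1), and with all arrays kept it was lost with no filter on dim probes, the unmoderated test or the replicate block. Rhob, a small GTPase gene, fell by 0.35 (adjusted p = 0.042, limma) and was also lost with any of 5 arrays left out (up to 0.116 without DJ-1 siRNA replicate 3). With 75th percentile scaling the fall of Rhob was 0.22 (adjusted p = 0.151). The survival gene Mcl1, named after its values were seen, was the remaining higher probe, at 0.47 (adjusted p = 0.0207, limma), lost with any of 4 arrays left out (up to 0.0827 without DJ-1 siRNA replicate 1). The other 21 tested probes of the list, among them those of Ccn1, Ccn2, Klf2, Klf4, Klf6, Ier3 and Zfp36 (all named after their values were seen), ranged from -0.53 to 0.46 without a call.

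**Figure D2:**
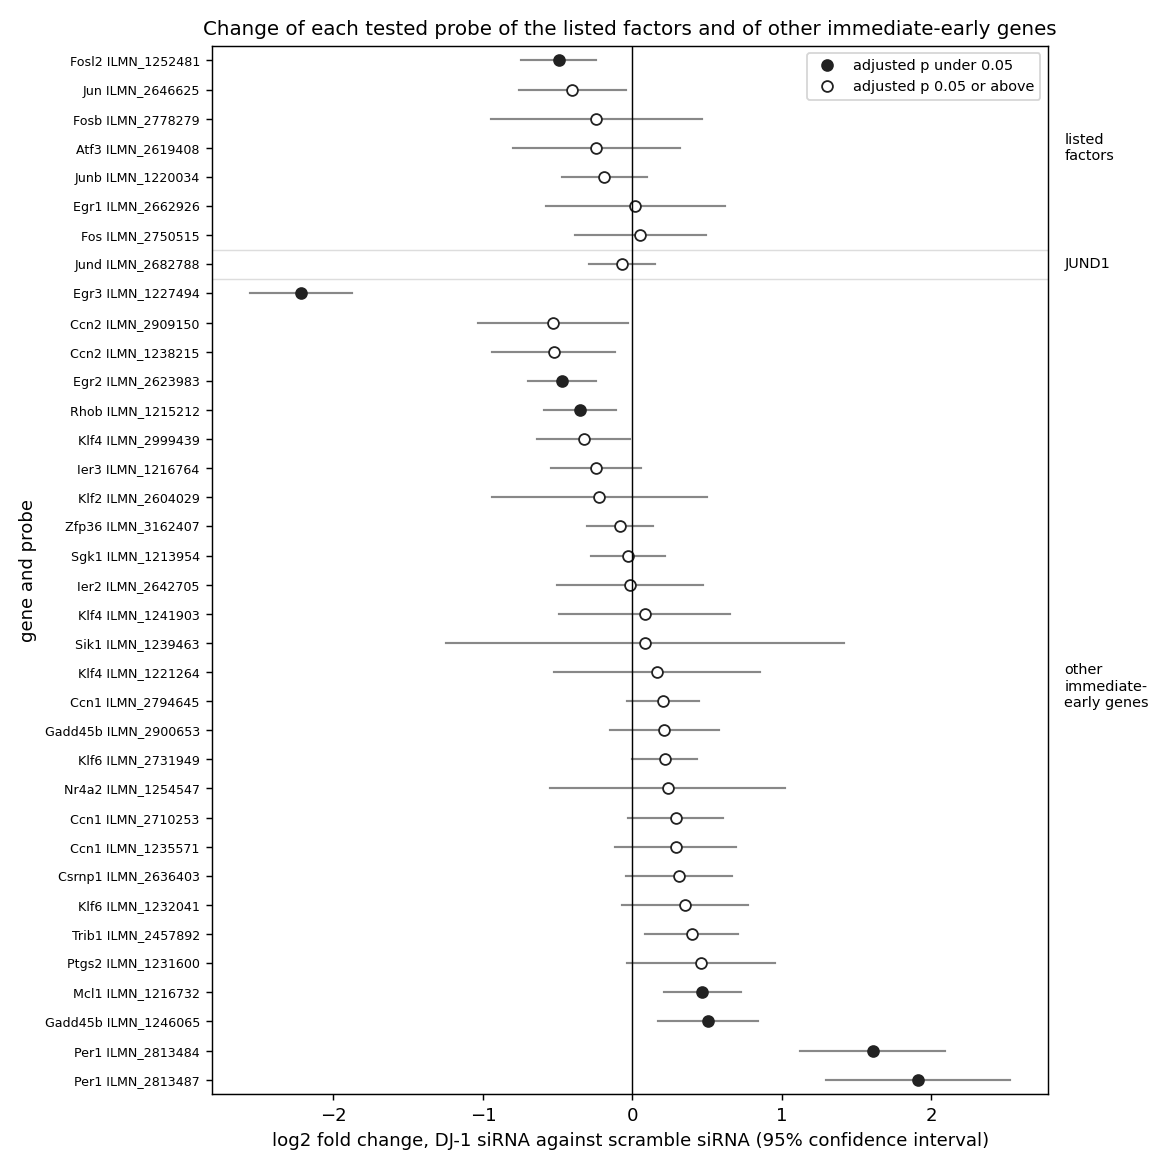
Log2 fold change of DJ-1 siRNA against scramble siRNA (horizontal axis) with its 95% confidence interval for the 7 tested probes of the listed factors, the JUND1 probe and the 28 tested probes of other immediate-early genes, filled where the adjusted p was under 0.05. Only FOSL2 is filled among the listed factors, while Egr3 at -2.22 and the 2 Per1 probes at 1.61 and 1.91 stand outside the range of all the others. The interval of FOSB is from a probe that entered the test only through the scramble arrays.

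Serum response factor and its partners drive FOS, EGR1 and EGR3 through CArG boxes. Of this list, all 7 genes have a probe but only 2 genes, with 1 probe each, were tested, and both were lower, where 13.6% of all tested probes were lower. With 2 probes nothing is read from this count. Srf read 10.92, 10.92 and 10.66 with scramble siRNA and 10.32, 10.51 and 10.14 after knockdown. The groups did not overlap, and knockdown replicate 3 was the lowest. Srf thus had a log2 fold change of -0.51 ± 0.14 (SE, adjusted p = 0.0325, limma). Elk3, a ternary complex factor that can repress, read 11.82, 11.86 and 11.83 against 11.41, 11.56 and 11.22, and fell by 0.44 ± 0.11 (SE, adjusted p = 0.0299, limma). Neither call was stable, since that of Srf was lost with any of 4 arrays left out (adjusted p up to 0.102 without DJ-1 siRNA replicate 3) and that of Elk3 with any of 5 (up to 0.0897 without DJ-1 siRNA replicate 1). With every array kept, the adjusted p of Srf was 0.0571 with 75th percentile scaling, 0.0724 with no filter on dim probes and 0.073 with the unmoderated test, and that of Elk3 was 0.0869, 0.0678 and 0.052 in the same order. The Srf promoter window (chr17:46556113-46556412, minus strand) is shown because serum response factor acts on its own gene, and the capitals mark 2 CArG boxes, which start 82 and 62 bases before the gene start.
Srf: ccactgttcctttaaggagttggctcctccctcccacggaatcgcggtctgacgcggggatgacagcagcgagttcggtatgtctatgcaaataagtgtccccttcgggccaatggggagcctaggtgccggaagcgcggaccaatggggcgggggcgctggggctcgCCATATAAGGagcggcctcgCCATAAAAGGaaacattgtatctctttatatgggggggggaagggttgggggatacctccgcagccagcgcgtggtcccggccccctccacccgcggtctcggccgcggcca

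Kinases that act on these factors were called at a rate near the background. Of 24 MAP kinase pathway genes 20 were tested, with 34 probes, and 8 probes were higher while 3 were lower (limma), together 32.4% against 30.1% of all tested probes. The count of 11 fell to 4 without scramble siRNA replicate 1, DJ-1 siRNA replicate 1 or DJ-1 siRNA replicate 3, and to 3 with the unmoderated test. The median log2 fold change was 0.11. Rps6ka1, which encodes the kinase RSK1 that phosphorylates FOS and SRF, read 9.67, 9.37 and 9.66 against 10.56, 10.23 and 10.40. The groups did not overlap, and the log2 fold change was 0.83 ± 0.13 (SE, adjusted p = 0.00715, limma). Of the 8 higher probes 3 were detected on 1 scramble array and on 3 knockdown arrays and so entered the test only through the knockdown arrays, and their p-values are not given. They were a probe of Mapk9, the gene of JNK2, at a log2 fold change of 1.06 (0.36 without background correction), a probe of Mapk3, the gene of ERK1, at 0.76 (0.26 without background correction), and the second Rps6ka1 probe at 0.57. The Mapk9 call was lost with any of 5 arrays left out and the Mapk3 call with any of 4, each was lost with no filter on dim probes and with the unmoderated test, and that of Mapk3 also with 75th percentile scaling. Further probes of Mapk3 (0.61) and Mapk9 (0.69), detected on every array, and the probe of Rps6ka5 (0.75) were also called higher, and these and the second Rps6ka1 probe were named after their values were seen. On the lower side, Mapk11 (p38 beta) fell by 0.54 (0.31 without background correction) and Map2k4 (a JNK kinase) by 0.48 at 1 of 2 tested probes, and both lost their call with any of 5 arrays left out, with an adjusted p of up to 0.0739 for Mapk11 and 0.139 for Map2k4, each without DJ-1 siRNA replicate 1.

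The brakes of the pathway were counted next. Among MAP kinase phosphatase and Sprouty genes, 16 of 18 have a probe (Dusp5 and Spry1 do not) and 13 were tested, with 20 probes, and 2 rose while 1 fell (limma), or 15% in all where 30.1% of all tested probes were called, and the difference was not tested. The count was 6 without background correction and 6 with a trended prior variance, but 0 without DJ-1 siRNA replicate 1 and 0 with the unmoderated test. Dusp4, which acts on nuclear ERK and JNK, rose by 1.01 at 1 of 3 tested probes (adjusted p = 0.0438, limma), and Dusp10, which acts on p38 and JNK, by 0.80 at 1 of 2 (adjusted p = 0.0141, limma; 0.49 without background correction). Dusp2, a nuclear phosphatase of ERK, fell by 0.74 at 1 of 2 (adjusted p = 0.0194, limma), but by 0.29 without background correction. Each of these was lost without DJ-1 siRNA replicate 1, at an adjusted p of 0.104 for Dusp4, 0.0536 for Dusp10 and 0.0725 for Dusp2. Dusp4 was also lost without any of 4 other arrays, and Dusp2 without DJ-1 siRNA replicate 3 (0.0675). The classic immediate-early phosphatase Dusp1, named after its values were seen, stood at a log2 fold change of 0.16 (adjusted p = 0.58, limma). Nab1 and Nab2 encode the co-repressors of EGR proteins, and EGR factors induce them in turn. Of their 5 tested probes 1 was lower (20%), where 13.6% of all tested probes were lower, and nothing is read from this count. The lower probe was of Nab1, at -0.57 (adjusted p = 0.0421, limma), and the other 3 Nab1 probes were not called. That call was lost with any of 5 arrays left out (adjusted p up to 0.0921 without DJ-1 siRNA replicate 1).

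Genes known as AP-1 targets were called at a rate near the background. Of 20 such genes 16 were tested, with 27 probes, and 2 rose while 5 fell (limma), together 25.9% against 30.1% of all tested probes. The median log2 fold change was 0.02. Of these 7 calls the count fell to 2 without DJ-1 siRNA replicate 1 or DJ-1 siRNA replicate 3, and to 2 with the unmoderated test. The cytokine gene Il6 read 7.43, 7.14 and 7.64 with scramble siRNA and 6.64, 6.73 and 6.26 after knockdown. The groups did not overlap, and the log2 fold change was -0.86 ± 0.18 (SE, adjusted p = 0.0152, limma), or -0.42 without background correction. The matrix protease gene Mmp3 read 6.45, 6.14 and 6.40 against 5.44, 5.98 and 5.69, a log2 fold change of -0.62 ± 0.16 (SE, adjusted p = 0.0314, limma) that lost its call with any of 4 arrays left out (adjusted p up to 0.0965 without DJ-1 siRNA replicate 1). Without background correction Mmp3 stood at -0.21 and was not called (adjusted p = 0.0722). Cyclin D1, which carries cells through G1, fell at 2 of 3 Ccnd1 probes. Both falls were 0.51 (adjusted p = 0.0345 and 0.0484, limma), the second at a probe named after its values were seen. Each was lost with any of 5 arrays left out (up to 0.0824 without scramble siRNA replicate 3 for the first, and 0.141 when knockdown replicate 3 was left out for the second). The remaining lower probe was that of Spp1 at -0.38 (adjusted p = 0.0309, limma), named after its values were seen and lost with any of 5 arrays left out (up to 0.103 without DJ-1 siRNA replicate 3). With 75th percentile scaling Spp1 stood at -0.13 (adjusted p = 0.378). Fibronectin rose at 1 of 4 Fn1 probes, by 0.86 (adjusted p = 0.0148, limma), and the heme oxygenase gene Hmox1 by 0.48 (adjusted p = 0.0244, limma; 0.32 without background correction), with the latter lost without any 1 knockdown array (up to 0.0819 without DJ-1 siRNA replicate 3). Mmp3 is shown as a target that carries a TPA response element near its start (chr9:7445572-7445871, plus strand): the capitals mark TGACTCA as read on the other strand, 46 bases before the gene start.
Mmp3: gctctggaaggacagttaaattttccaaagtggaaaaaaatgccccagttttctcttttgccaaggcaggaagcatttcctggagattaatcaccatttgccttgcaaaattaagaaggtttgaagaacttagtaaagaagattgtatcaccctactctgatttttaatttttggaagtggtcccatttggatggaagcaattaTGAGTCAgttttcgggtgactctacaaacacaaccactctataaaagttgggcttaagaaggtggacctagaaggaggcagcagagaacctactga

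MYC itself could not be measured, but its network and its targets could. MAX pairs with MYC to activate and with MXD, MXI1 and MNT proteins to repress. Of 14 network genes 10 were tested, with 16 probes, and 3 rose while 2 fell (limma), or 31.2% in all, near the background of 30.1%, and 2 were called without DJ-1 siRNA replicate 1 or DJ-1 siRNA replicate 3. The median log2 fold change was 0.06. Mxi1 read 9.56, 9.43 and 9.22 with scramble siRNA and 10.51, 10.22 and 10.80 after knockdown. The groups did not overlap, and the log2 fold change was 1.10 ± 0.17 (SE, adjusted p = 0.00645, limma). Another MAX partner, Mxd4, rose by 0.73 (adjusted p = 0.0217, limma; 0.47 without background correction) at 1 of 2 probes, a call lost with any of 3 arrays left out (adjusted p up to 0.0718 without DJ-1 siRNA replicate 3). Mxd1, of the same family, fell by 0.87 ± 0.17 (SE, adjusted p = 0.0124, limma), or by 0.47 without background correction. Zbtb17, through which MYC represses, rose by 0.40 (adjusted p = 0.0236, limma), and Fbxw7, the ligase subunit that marks MYC and JUN for destruction, fell by 0.92 (adjusted p = 0.0244, limma; 0.60 without background correction). These last calls were lost with any of 3 arrays left out for Zbtb17 (up to 0.0844 without DJ-1 siRNA replicate 1) and any of 4 for Fbxw7 (up to 0.0852 without DJ-1 siRNA replicate 3).

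The list with the most calls held genes known as MYC targets, most of which serve ribosome assembly, nucleotide and polyamine synthesis. Of 22 genes 21 have a probe (Fbl does not) and 20 were tested, with 27 probes. By limma 0 were higher and 13, from 8 genes, were lower, which is 48.1% of the list where 13.6% of all tested probes were lower. At an unadjusted p under 0.05 there were 1 and 17, where at least 16.5% and 13.6% of all tested probes pass. The list had a median log2 fold change of -0.55, against 0.05 over all tested probes. No test was made of the list as a whole, and it was chosen with earlier results of these data known. Nop56, a core protein of the small nucleolar particles that modify ribosomal RNA, read 8.77, 9.78 and 9.44 with scramble siRNA and 7.09, 7.63 and 6.88 after knockdown. The groups were well apart although both spread widely, and the log2 fold change was -2.13 ± 0.30 (SE, adjusted p = 0.00475, limma). Its partner Nop58 read 11.14, 11.02 and 11.14 against 10.02, 9.88 and 9.48, a log2 fold change of -1.31 ± 0.15 (SE, adjusted p = 0.00344, limma). Bop1, needed for the large ribosomal subunit, read 10.49, 10.83 and 10.84 against 9.71, 9.80 and 9.72, a log2 fold change of -0.98 ± 0.13 (SE, adjusted p = 0.00396, limma). The other 10 lower probes, of Srm, Ncl, Nme1, Tfrc and Gart (named after their values were seen), had log2 fold changes from -0.88 to -0.55. Not all targets fell, since the log2 fold change was 0.29 for Npm1 (adjusted p = 0.11, limma), 0.03 for Odc1, and -0.20 and -0.11 for the Cdk4 probes, 3 genes also named after their values were seen. The count of lower probes was 7 without DJ-1 siRNA replicate 1.

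**Figure D3:**
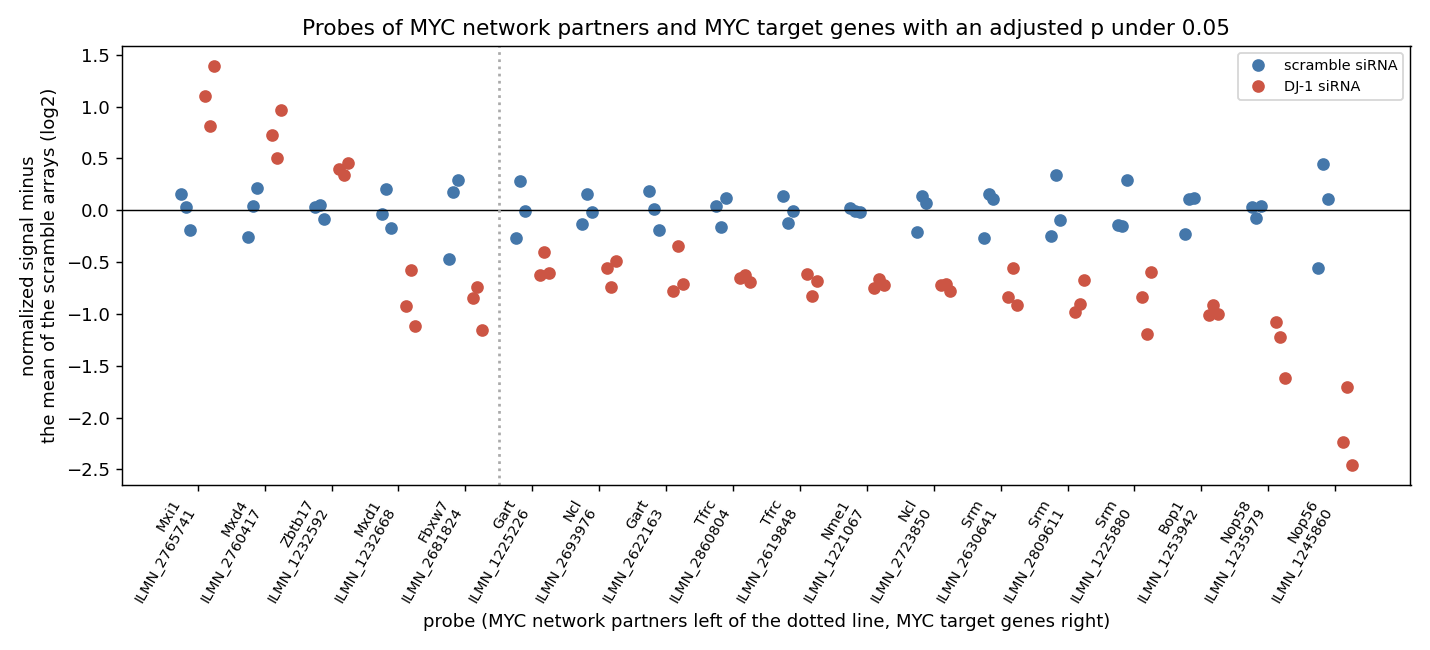
Normalized log2 signal minus the mean of the scramble arrays (vertical axis) for the 5 called probes of MYC network partners, left of the dotted line, and the 13 called probes of MYC target genes, with scramble siRNA in blue and DJ-1 siRNA in red. All 13 target probes lie lower on every knockdown array than on any scramble array, with log2 fold changes from -2.13 to -0.55, and Mxi1, Mxd4 and Zbtb17 lie higher.

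Under stress ATF4 induces ATF3, so genes of the ATF4 branch were counted as well. Of 11 genes 10 were tested, with 17 probes, and 1 rose while 4 fell (limma), or 29.4% in all, near the background of 30.1%. Without background correction 4 rose and 4 fell, with a trended prior variance 3 and 4, and the count was 2 without DJ-1 siRNA replicate 1. Over the 17 probes the log2 fold change had a median of 0.00. Chac1, which breaks down glutathione and is a target of ATF4, read 11.45, 11.22 and 11.17 against 10.24, 10.07 and 10.27. It fell without overlap, by 1.08 ± 0.12 (SE, adjusted p = 0.0031, limma). Atf5 fell by 0.68 (adjusted p = 0.00721, limma). Atf4 itself, the factor that stress translates, fell at both probes, by 0.74 (adjusted p = 0.0125, limma) and, at the probe named after its values were seen, by 0.48 (adjusted p = 0.0137, limma). Both were lost without DJ-1 siRNA replicate 1 (adjusted p = 0.0512 and 0.0539). The single higher probe was of Cebpg, at 0.74 (0.23 without background correction). It was detected on 2 scramble arrays and on 3 knockdown arrays. This probe thus entered the test only through the knockdown arrays, where it was higher, so its p-value is not given. The call was lost without DJ-1 siRNA replicate 1 or 3. The second Cebpg probe was not called.

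Across the 10 related lists 188 probes were tested, and 23 rose while 34 fell (limma). The 57 calls are 30.3% of these probes, near the 30.1% of all tested probes. The total was 22 without DJ-1 siRNA replicate 1 and 30 when knockdown replicate 3 was left out.

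**Figure D4:**
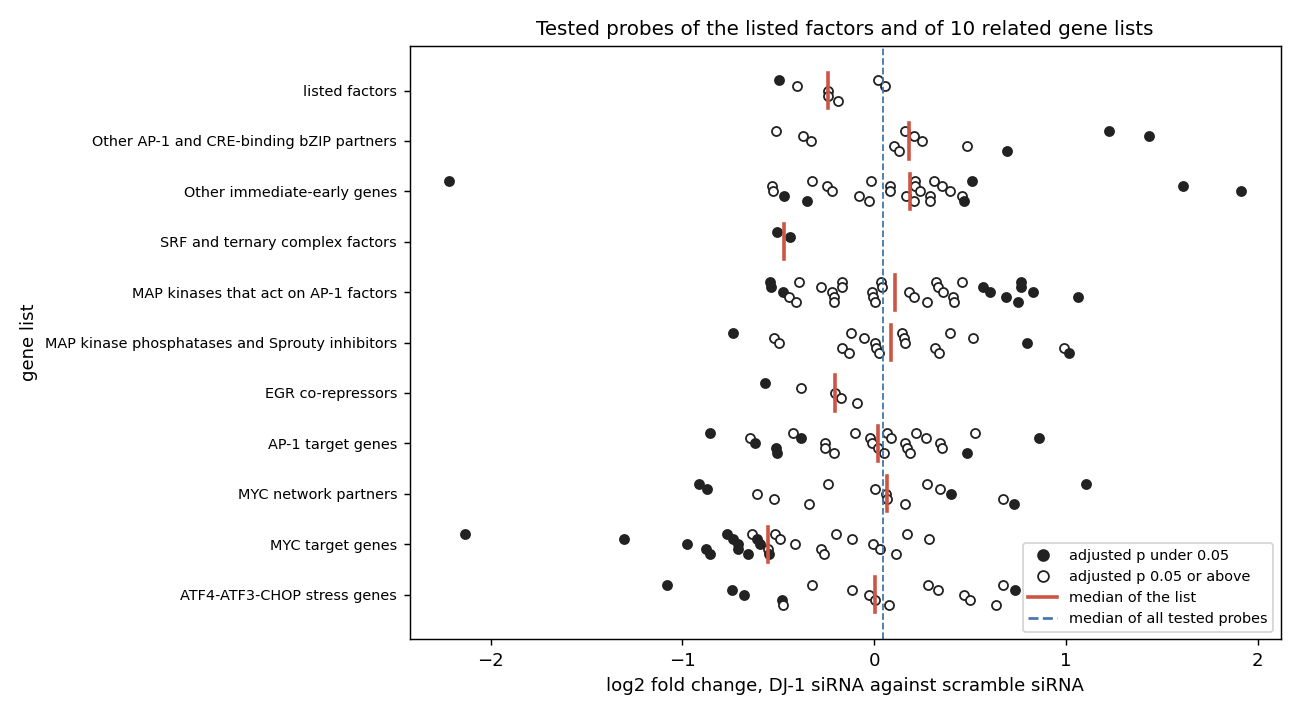
Log2 fold change of DJ-1 siRNA against scramble siRNA (horizontal axis) of every tested probe of the listed factors and of the 10 related lists (vertical axis), filled where the adjusted p was under 0.05, with a red bar for the median of each list and a dashed line for the median of all tested probes at 0.05. The medians of the listed factors (-0.24), of serum response factor and its partners (-0.47), of the EGR co-repressors (-0.20), of AP-1 targets (0.02), of ATF4 stress genes (0.00) and of MYC targets (-0.55) lie left of that line.

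The array profile most like that of FOSL2 was looked for over all tested probes, as the root mean square difference between log2 values centred on their mean over the 6 arrays. The nearest were Psmb2 (0.0222), Senp3 (0.0264) and Snx15 (0.0385), with log2 fold changes of -0.47, -0.51 and -0.54. They encode a proteasome subunit, a SUMO protease and a sorting nexin. They were picked for likeness on these same 6 arrays, so no test of them is given.

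The cell type label was checked against markers, since the levels of these factors differ between myoblasts and myotubes. All 9 myotube marker genes were detected and tested, with 12 probes, and 0 were higher, also at an unadjusted p under 0.05, and 4 (33.3%) were lower (Myl1 at 1 of 2 probes, Tnnc2, Des and Tnnt3, from -1.20 to -0.52, limma), where 16.5% of all tested probes were higher and 13.6% lower. Their summed level, led by Acta1, was 264757, 266383 and 258205 with scramble siRNA and 220601, 229617 and 211271 after knockdown, so the groups did not overlap. Of 7 myoblast and reserve cell markers 5 were tested, with 6 probes, of which 83.3% were called against 30.1% of all tested probes: Cav1 (0.36), Cd34 (0.54) and 1 probe of Vcam1 (0.73) were higher while Heyl (-1.73) and Myod1 (-0.90) were lower (limma). Their summed level, led by Cav1, was 14789, 14753 and 14072 against 17629, 18543 and 17234, again without overlap. The calls of Tnnt3, Cav1 and Cd34 were lost with 1 array left out (adjusted p up to 0.0542 without DJ-1 siRNA replicate 3 for Tnnt3, 0.0997 without DJ-1 siRNA replicate 1 for Cav1 and 0.0652 without scramble siRNA replicate 3 for Cd34). With 75th percentile scaling Des stood at -0.32 and was not called (adjusted p = 0.0554). Without background correction Heyl stood at -0.83 and the Vcam1 probe at 0.31. Of the defining markers of satellite cells and myoblasts, Pax7 was not detected on any array and Myf5 was detected on 1 array of each group. Among 10 tested probes of proliferating cell markers 1 was lower (10%), a Ccnb1 probe at -0.57 that was lost without DJ-1 siRNA replicate 1 (adjusted p = 0.0585) or 3 (0.0564). At an unadjusted p under 0.05 there were 3 higher and 1 lower, where at least 16.5% and 13.6% of all tested probes pass. In 5 alternatives 1 or 2 probes were called higher. Their summed level, led by Cdk1, overlapped between groups, at 7422, 8079 and 7290 against 7207, 8156 and 7356. Of immune markers 2 probes were tested and 0 were called (limma), with 1 at an unadjusted p under 0.05. In 7 alternatives 1 immune probe was called, higher without scramble siRNA replicate 2 and lower in the others. No endothelial or adipocyte marker was detected on enough arrays to be tested. Detection differed between the groups too, with 16985, 17399 and 18179 probes detected with scramble siRNA and 18704, 18857 and 18408 after knockdown. The summed myotube level fell after knockdown, as did FOSL2, Egr3 and the called MYC targets, while the summed reserve cell level and the detection rate rose. What part these differences have in the result was not tested.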

How the data were processed

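For every probe on every array the authors deposited a mean signal intensity, with its standard error over beads, a bead count and a detection p-value, as GenomeStudio gave them. The deposited intensity values carried no normalization and no background subtraction.

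These were processed in R 4.3.3 with limma 3.58.1. The neqc function removed background by normexp, with the negative controls taken from the detection p-values and 16 added as offset, and then quantile normalized the arrays on the log2 scale. The fit used lmFit and eBayes on the probes detected on 3 or more of the 6 arrays, the Benjamini-Hochberg adjustment ran over all of these, and the threshold was 0.05. Intervals are 95% confidence intervals of limma's moderated test. The pipeline was tested on simulated data. Gene names are those of the file unless the RefSeq table of GRCm38.p6 matched, which it did for 32345 probes. Where a probe was not detected in 1 group, its bound takes the lowest detected signal of each array.

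The rule for naming probes took all those of the 10 factors and of Park7, up to 3 called probes with the largest rise and 3 with the largest fall per list among those detected on every array of a group, and the 3 nearest profiles to FOSL2. Also named are called markers, the defining and the leading gene of a marker list, further probes of a named gene, and listed genes with no probe. Genes outside this rule are marked as named after their values were seen. The members and lists were chosen with earlier results of these data known.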

Additional observations from a re-analysis of the deposited data

How the results depend on the processing

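Each alternative changed 1 step. Park7 was called lower in all 14, with log2 fold changes from -1.24 to -1.003. FOSL2 was between -0.55 and -0.41 over the 8 that kept every array and called in each. It lay between -0.54 and -0.43 with 1 array left out and lost its call without DJ-1 siRNA replicate 1 (-0.45). The factors called were 2 without background correction, where JUN joined at -0.29, and 0 to 1 with 1 array left out.

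All probes called were 3519 with no filter on dim probes and 2559 to 5271 with 1 array left out. Called probes of the 10 lists were 35 with no filter, 30 with an unmoderated test, and 22 to 55 with 1 array left out. The sign turned with array weights for FOS (-0.043) and EGR1 (-0.0963). With 1 array left out FOS ran from -0.067 to 0.22, FOSB from -0.58 to 0.046 and EGR1 from -0.26 to 0.19. The cause was not tested, beyond fewer arrays or more probes in the adjustment.

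Arrays with the same replicate number correlated at 0.05, 0.05 and 0.02, under the 0.1 set for pairing, so the groups were compared unpaired. Even so, 6 of 6 arrays correlated best with the array of their own number, so a link between equal numbers is possible. With the replicate block 4350 probes were called in all, 55 of the lists and 1 of the factors, FOSL2 at an adjusted p of 0.0364 (limma). The replicate block ended 10 named calls: Gadd45b (adjusted p = 0.0543), Rhob (0.0759), Elk3 (0.0545), Map2k4 (0.0813), Nab1 (0.0629), Mmp3 (0.073), the first Ccnd1 probe (0.0611), Spp1 (0.0548), Zbtb17 (0.0623) and Cav1 (0.0665).

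Of 55 probes picked from the lists, profiles and markers, 18 were called under every alternative that tested them. Some dim probes among the 18 were not tested under the stricter filter. Under at least 1 alternative 37 were lost, and 0 changed sign. Il6, Fn1 and Mxd1 were lost only with the unmoderated test. With every array kept, 21 of the 55 were lost with the unmoderated test, 19 with no filter on dim probes, 11 with 75th percentile scaling and 1 without background correction. Signal near background limits FOSB, ATF3 and MYC, and 3 arrays per group limit the precision of all values.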
